A study of Mus musculus with 10 samples.

Results

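The 10 ileal crypt samples of the series were placed on 1 ordered scale of labelled Stat5 dose, with KO at -1, Ctrl at 0 and OE at 1, and a straight line was fitted to each gene across that scale. All 10 of the 10 samples entered, 2 KO, 3 Ctrl and 5 OE, and the line was fitted to 13056 of the 28987 gene IDs, those with at least 1 TPM (a share of all transcripts, corrected for gene length) in at least 2 samples. Every mouse carried VilCreER, a Cre recombinase driven by the Villin promoter in the intestinal epithelium and switched on by tamoxifen-type drugs, and every mouse was labelled C57Bl6, male and 12 weeks old. The Ctrl genotype read VilCreER;Stat5 (STAT5+/+), the KO genotype VilCreER;Stat5 (STAT5IEC-/-) and the OE genotype VilCreER;icS5 (STAT5IEC+++). The KO and Ctrl ends thus share the line named Stat5, while the OE end comes from the line named icS5, which the labels do not spell out. No control of the icS5 line was analysed here, so at the upper end of the scale the allele and the dose cannot be told apart. Crypts had been shaken off the tissue in 10 mM EDTA at 37 C for 30 minutes, and total RNA was sequenced single-end. Nothing in the labels says that the samples came from separate animals, so p-values reflect the variation among these samples only, and some of it may be technical.

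STAT5A and STAT5B are transcription factors of the JAK-STAT pathway. Cytokine and hormone receptors activate Janus kinases, which phosphorylate STAT proteins, and the paired STATs enter the nucleus and bind short DNA elements. Crypts hold the stem cells and dividing progenitors of the small intestine and the Paneth cells, which secrete antimicrobial peptides, and T cells lie between the epithelial cells. The title of the study names Paneth cells and the genes Wnt3a, Tcf4 (Tcf7l2), Sox9 and Gfi1. In bulk RNA of this kind, fewer cells of a type and less RNA per cell cannot be told apart.

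The samples differed in ways the dose does not describe. Mitochondrially encoded transcripts took 83.7% of the TPM of Ctrl 2 and 43.3% to 57.0% in the other 9 samples, and 8263 genes reached 1 TPM in Ctrl 2 against 11050 to 11932 elsewhere. The factor that brought each sample to a common scale was 0.294 for Ctrl 2 and between 0.831 and 1.31 for the others. The summed TPM of 4 Y-linked genes was 3.45, 0.250 and 0.140 in Ctrl 3, OE 3 and OE 4 and lay between 32.3 and 131 in the other samples, although all are labelled male. Fits are therefore given with and without Ctrl 2, and for some genes and lists also without Ctrl 3, OE 3 and OE 4. TPM carry no read totals, and sequencing depth is therefore unknown. Levels below are TPM after division by these factors, called scaled TPM, and a slope is the change in log2(scaled TPM + 1) per dose step. In the slope of all 10 samples the KO group carries a weight of -0.426, the Ctrl group -0.148 and the OE group 0.574, so the line is mainly a comparison of the ends. Without Ctrl 2 these weights are -0.444, -0.111 and 0.556.

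Both Stat5 genes followed the order of the labels. Stat5a was at 0.637 and 0.336 scaled TPM in KO 1 and 2, at 1.51, 2.597 and 1.07 in Ctrl 1 to 3 and at 1.56, 2.103, 3.55, 2.81 and 2.81 in OE 1 to 5. For Stat5b, KO 1 and 2 gave 0.482 and 0.430 scaled TPM, Ctrl 1 to 3 gave 1.72, 1.76 and 0.971, and OE 1 to 5 gave 1.49, 3.503, 4.71, 5.53 and 2.65. Both KO samples lay below all others for both genes in scaled values, which rests on the scaling of Ctrl 2, and the library labelled OE 1 lay within the Ctrl range for both, so each slope of this report includes at its upper end 1 sample without raised Stat5 transcripts. Stat5a had a slope of 0.59 per step (95% interval 0.25 to 0.93), with p = 0.00198 in an exact two-sided permutation test over every way of giving the 10 samples their codes. Without Ctrl 2 its slope was 0.62, and the exact permutation p of 0.00132 was the smallest that 756 arrangements allow. Stat5b had a slope of 0.79 (95% interval 0.40 to 1.18), with an exact permutation p of 0.00238, and 0.80 without Ctrl 2, with an exact permutation p of 0.00397. Adjusted over these 4 tests, the exact permutation p was 0.00317 for the first 3 and 0.00397 for the last. Without Ctrl 3, OE 3 and OE 4 the slopes were 0.51 and 0.60, with exact permutation p = 0.0286 and 0.0190. Across all genes tested, the limma fit gave an adjusted p of 0.998 for both.

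**Figure D1:**
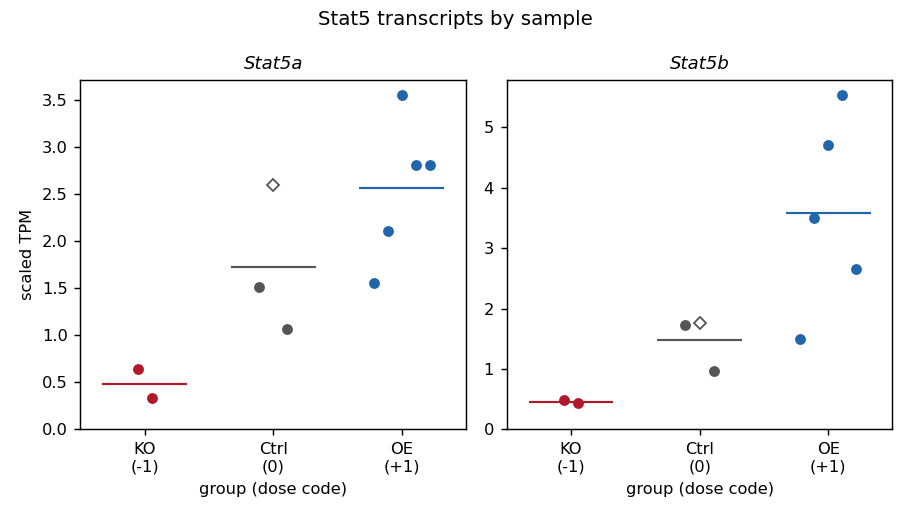
Scaled TPM of Stat5a and Stat5b in each sample (vertical axis) against the labelled group and its dose code (horizontal axis). Points are samples, the open diamond is Ctrl 2 and bars are group means. Both KO samples lie lowest. The library labelled OE 1 lies within the Ctrl range for both genes, and OE 2 does so for Stat5a.

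No gene passed an adjusted p of 0.05 in the trend over all 10 samples (limma with Benjamini-Hochberg adjustment, 0% of 13056 genes), and the smallest adjusted p was 0.998. Without Ctrl 2 the same limma fit called 0% as well, and its smallest adjusted p was 0.478. At an unadjusted p under 0.05, 253 genes had a positive slope (1.94% of those tested) and 200 a negative slope (1.53%) with all 10 samples. Without Ctrl 2 there were 377 (2.89%) and 311 (2.38%). Uniform p-values would place 652.8 genes under 0.05, against 453 in both directions with all 10 samples and 688 without Ctrl 2. The median slope of all genes was 0.0029 and the median standard error 0.19. A positive slope was found for 6605 of the genes tested (50.6%), and for 6501 without Ctrl 2 (49.8%). These shares, and those above at an unadjusted p under 0.05, are the background for the gene lists below. In values as deposited, without scaling, the numbers at an unadjusted p under 0.05 were 156 positive and 61 negative, so the balance of directions depends on the scaling. Because no gene was called, the genes below are described by their values, and an unadjusted p ranks them and does not call them.

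**Figure D2:**
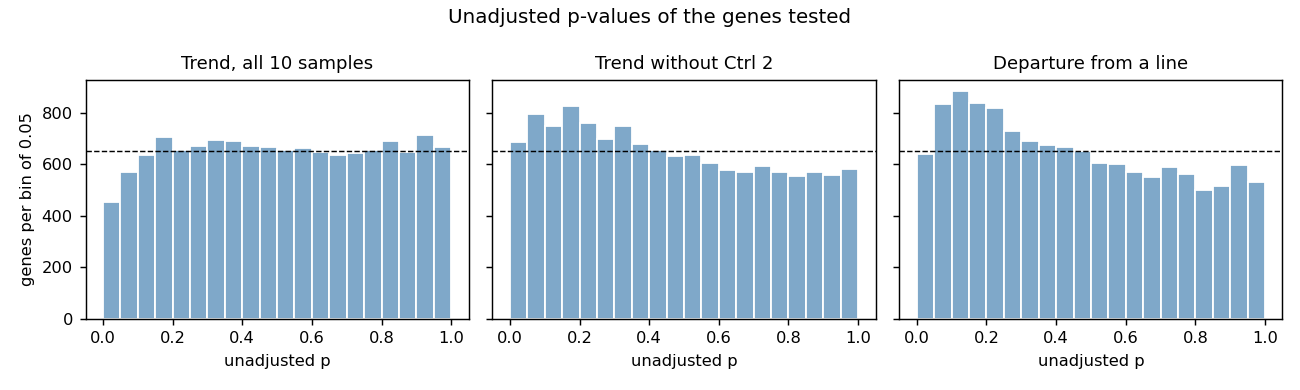
Number of genes (vertical axis) in each bin of 0.05 of the unadjusted p (horizontal axis) for the trend over all 10 samples, the trend without Ctrl 2 and the departure from a line. The dashed line, at 652.8 genes, is the number each bin would hold if all were equal. The lowest bin holds 453, 688 and 642 genes in the 3 panels.

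A stricter reading asks for order sample by sample: every KO sample below every Ctrl sample, and every Ctrl sample below every OE sample, or the reverse. This held for 3 genes from low to high (0.023% of those tested) and for 3 genes from high to low (0.023%). Random codes would give each order to a fraction of about 0.000397 of genes, which is more than was found in either direction. Meeting the order thus does not set these genes apart from random codes, and they are described by their values. The 3 that ran from low to high were Ercc2, Prr5 and Igflr1. Scaled TPM of Ercc2 were 19.5 and 11.9 in KO 1 and 2, 21.6, 22.5 and 20.9 in Ctrl 1 to 3 and 22.8, 24.8, 41.5, 37.9 and 50.7 in OE 1 to 5. Ercc2 encodes a helicase of the general transcription factor TFIIH that opens DNA in nucleotide excision repair. The highest Ctrl sample and the library labelled OE 1 were nearly equal, whereas OE 3 to OE 5 stood well clear. The slope was 0.56 (95% interval 0.22 to 0.91, limma, unadjusted p = 0.00376) and 0.56 without Ctrl 2 (unadjusted p = 0.00461). With Ctrl 3, OE 3 and OE 4 left out it was 0.48 (limma, unadjusted p = 0.0378). Prr5 amounted to 2.84 and 3.602 scaled TPM in KO 1 and 2, to 4.22, 4.56 and 3.73 in Ctrl 1 to 3 and to 5.17, 5.23, 5.46, 6.03 and 5.81 in OE 1 to 5. Prr5, which encodes a component of the mTORC2 kinase complex, had the tightest OE values of the 3. This gave a slope of 0.32 (95% interval 0.092 to 0.55, limma, unadjusted p = 0.0104), or 0.33 when Ctrl 2 was left out (unadjusted p = 0.00565). Igflr1 stood at 0 and 0.548 scaled TPM in the KO samples, at 1.09, 1.16 and 1.74 in Ctrl 1 to 3 and at 8.18, 2.89, 4.22, 3.19 and 3.12 in OE 1 to 5. Igflr1, a receptor of the tumour necrosis factor receptor family found on T cells, is under the level of 5 scaled TPM required for naming and was chosen after its values were seen. It had the smallest unadjusted p of all genes with all 10 samples, and KO 1 was listed at 0. Igflr1 had a slope of 1.02 (95% interval 0.64 to 1.41, limma, unadjusted p = 0.000106), with 1.01 in the absence of Ctrl 2 (unadjusted p = 0.000148). Its slope was 1.06 without Ctrl 3, OE 3 and OE 4 (limma, unadjusted p = 0.0016).

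Of the 3 genes ordered the other way, 2 are described here, Ctnnbl1 and 8030462N17Rik. The values of Ctnnbl1 were 27.7 and 30.5 scaled TPM in KO 1 and 2, then 16.98, 17.3 and 16.8 in Ctrl 1 to 3, and 11.8, 9.18, 16.5, 13.4 and 15.7 in OE 1 to 5. Ctnnbl1 encodes a protein associated with the spliceosome, and its 3 Ctrl values were nearly equal. OE 3 lay just under the lowest Ctrl sample, and the KO samples stood clear above all. Its slope per step was -0.52 (95% interval -0.78 to -0.26, limma, unadjusted p = 0.00113), against -0.53 without Ctrl 2 (unadjusted p = 0.00104). 8030462N17Rik, an uncharacterised gene singled out from its values, was at 3.88 and 4.62 scaled TPM in KO, between 3.38 and 3.49 in Ctrl and between 1.14 and 3.07 in OE. With Ctrl 2 left out, the count of ordered genes became 12 from low to high (0.0919%) and 24 from high to low (0.184%), which fewer samples make easier to reach. Random codes would then give each order to about 1 gene in 756. Stat5a, Sharpin, Thy1 and Eci3 were among the 12, and Esr1, Ralgapa2 and Dynlt3 among the 24. In TPM as deposited, 0 genes were ordered in either direction.

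**Figure D3:**
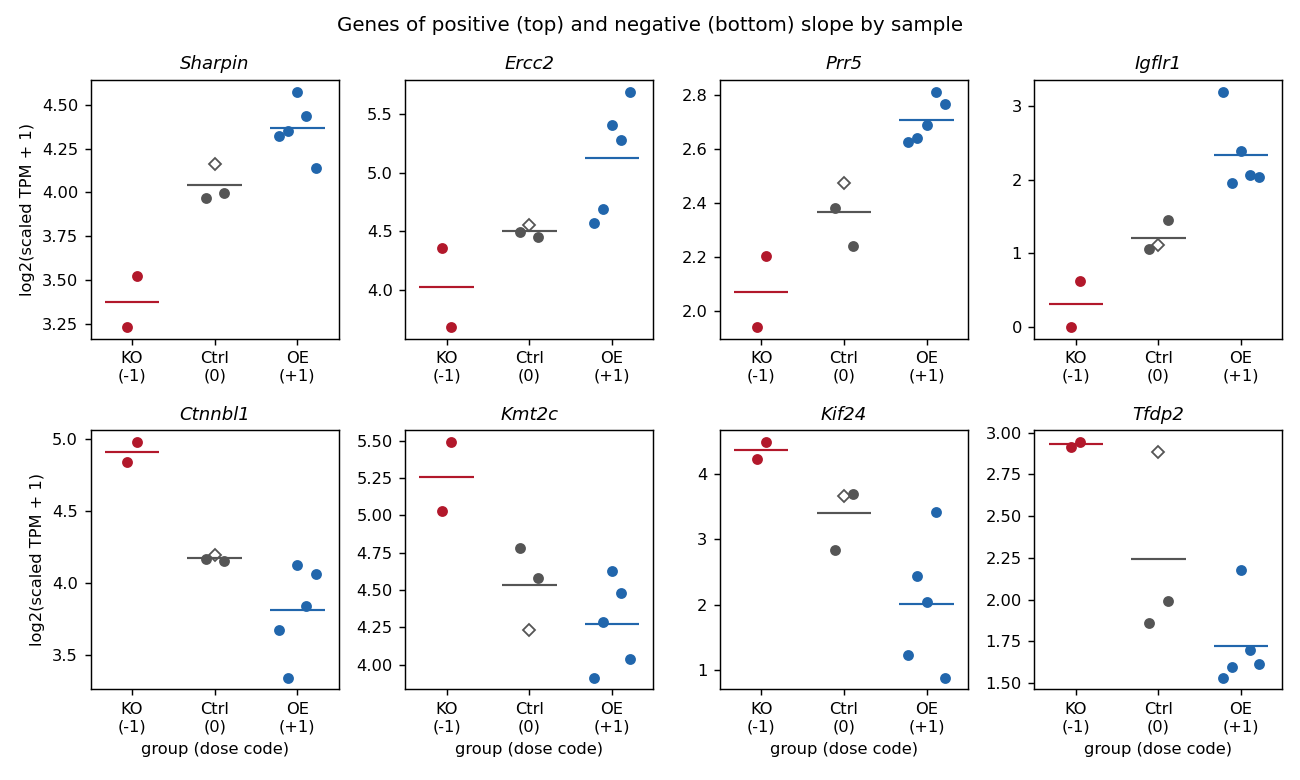
log2(scaled TPM + 1) in each sample (vertical axis, scaled for each gene) by group and dose code (horizontal axis) for 4 genes of positive slope (Sharpin, Ercc2, Prr5, Igflr1) and 4 of negative slope (Ctnnbl1, Kmt2c, Kif24, Tfdp2). Points are samples, the open diamond is Ctrl 2 and bars are group means. Ercc2, Prr5, Igflr1 and Ctnnbl1 keep the 3 groups apart, while Ctrl 2 and OE 5 change places in Sharpin and Ctrl 2 lies with KO in Tfdp2.

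Among protein-coding genes of at least 5 scaled TPM in the highest group, Sharpin had the smallest unadjusted p of the positive slopes. Sharpin gave 8.39 and 10.5 scaled TPM in KO 1 and 2, 14.7, 16.9 and 14.96 in Ctrl 1 to 3 and 19.01, 19.4, 22.9, 20.7 and 16.6 in OE 1 to 5. Sharpin encodes a subunit of the LUBAC ubiquitin ligase, which acts in NF-kB signalling. Only Ctrl 2 and OE 5 broke the order of the groups. A slope of 0.47 resulted (95% interval 0.24 to 0.70, limma, unadjusted p = 0.000827), with 0.48 once Ctrl 2 was dropped (unadjusted p = 0.000393). At Piezo1, 4.29 and 3.39 scaled TPM were found in KO 1 and 2, 4.91, 6.404 and 7.78 in Ctrl 1 to 3 and 11.3, 7.81, 6.89, 10.4 and 10.6 in OE 1 to 5. Piezo1 encodes a mechanically gated ion channel. Both KO samples were lowest, and Ctrl 3 lay above OE 3. Per dose step Piezo1 had a slope of 0.54 (95% interval 0.26 to 0.82, limma, unadjusted p = 0.00143), and 0.54 without Ctrl 2 (unadjusted p = 0.00127). Arhgap45 was at 1.55 and 1.09 scaled TPM in KO 1 and 2, at 0.862, 1.88 and 2.68 in Ctrl 1 to 3 and at 6.73, 2.96, 4.67, 10.2 and 6.95 in OE 1 to 5. Arhgap45 encodes a GTPase activating protein of blood cells, and all 5 OE samples lay above all Ctrl and KO samples, while KO and Ctrl overlapped. Fitted to all samples, the slope was 0.87 (95% interval 0.40 to 1.34, limma, unadjusted p = 0.00176), compared with 0.86 without Ctrl 2 (unadjusted p = 0.00234). For Ubtf, KO 1 and 2 gave 10.5 and 8.14 scaled TPM, Ctrl 1 to 3 gave 9.85, 13.6 and 15.1, and OE 1 to 5 gave 23.5, 17.5, 14.1, 19.2 and 17.8. Ubtf encodes the upstream binding factor of ribosomal RNA transcription. The fitted slope of Ubtf was 0.46 (95% interval 0.19 to 0.73, limma, unadjusted p = 0.00284) and became 0.46 without Ctrl 2 (unadjusted p = 0.00263). The other named genes of positive slope were Pcna and 5 genes of T cells, described below.

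Kif24, which encodes a kinesin that acts on centrioles and cilia, led the negative slopes. Scaled TPM of Kif24 were 17.8 and 21.4 in KO 1 and 2, 6.18, 11.7 and 11.9 in Ctrl 1 to 3 and 1.33, 4.43, 3.12, 9.75 and 0.848 in OE 1 to 5. Both KO samples were highest, and OE 4 was the only OE sample above the lowest Ctrl sample. The slope was -1.21 (95% interval -1.82 to -0.60, limma, unadjusted p = 0.00106) and -1.19 without Ctrl 2 (unadjusted p = 0.00161). Without Ctrl 3, OE 3 and OE 4 the slope of Kif24 was -1.44 (limma, unadjusted p = 0.000478). Tfdp2 amounted to 6.55 and 6.69 scaled TPM in KO 1 and 2, to 2.62, 6.39 and 2.98 in Ctrl 1 to 3 and to 1.89, 2.03, 3.52, 2.25 and 2.06 in OE 1 to 5. Tfdp2 encodes a partner of the E2F transcription factors of the cell cycle, and Ctrl 2 lay with the KO samples. This gave a slope of -0.59 (95% interval -0.93 to -0.26, limma, unadjusted p = 0.00255), or -0.56 when Ctrl 2 was left out (unadjusted p = 0.00136). Kmt2c stood at 31.6 and 43.9 scaled TPM in the KO samples, at 26.5, 17.8 and 22.9 in Ctrl 1 to 3 and at 14.1, 18.5, 23.8, 21.3 and 15.4 in OE 1 to 5. Kmt2c encodes a histone H3 lysine methyltransferase that acts at enhancers. Its KO samples lay above all others, and Ctrl and OE overlapped. Kmt2c had a slope of -0.46 (95% interval -0.75 to -0.17, limma, unadjusted p = 0.00528), with -0.48 in the absence of Ctrl 2 (unadjusted p = 0.00198). The values of Rreb1 were 12.6 and 13.9 scaled TPM in KO 1 and 2, then 12.2, 14.3 and 8.79 in Ctrl 1 to 3, and 6.78, 6.83, 9.19, 8.59 and 7.11 in OE 1 to 5. Rreb1 encodes a zinc finger transcription factor of Ras signalling. Its slope per step was -0.39 (95% interval -0.65 to -0.12, limma, unadjusted p = 0.00779), against -0.36 without Ctrl 2 (unadjusted p = 0.00483). The remaining genes of this group were Ttc39b, Ralgapa2 (a subunit of a GTPase activating complex for Ral), Pxylp1 (a phosphatase of proteoglycan synthesis), Acaa2 and Cask (a scaffold of cell contacts), with slopes of -0.41, -0.44, -0.51, -0.62 and -0.48.

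Leaving out Ctrl 2 brought forward a few genes at which that sample stood apart. In KO 1 and 2 Esr1 measured 7.603 and 3.96 scaled TPM, in Ctrl 1 to 3 2.47, 0 and 2.001, and in OE 1 to 5 0.971, 0.917, 1.55, 1.13 and 1.595. Esr1 encodes oestrogen receptor alpha and was listed at 0 in Ctrl 2. Across all 10 samples Esr1 sloped by -0.66 (95% interval -1.22 to -0.10, limma, unadjusted p = 0.0241) and, without Ctrl 2, by -0.75 (unadjusted p = 0.000223). Eci3 gave 2.08 and 1.95 scaled TPM in KO 1 and 2, 4.55, 14.8 and 2.68 in Ctrl 1 to 3 and 7.84, 6.05, 4.56, 4.64 and 5.32 in OE 1 to 5. Eci3 encodes an enoyl-CoA isomerase of fatty acid breakdown, and Ctrl 2 was far above every other sample. A slope of 0.47 resulted (95% interval -0.063 to 1.01, limma, unadjusted p = 0.0782), with 0.56 once Ctrl 2 was dropped (unadjusted p = 0.00103). At Dynlt3, 34.4 and 50.7 scaled TPM were found in KO 1 and 2, 33.1, 13.7 and 28.5 in Ctrl 1 to 3 and 25.1, 21.7, 21.02, 24.6 and 20.3 in OE 1 to 5. Dynlt3 encodes a light chain of the dynein motor, with Ctrl 2 below all others. Per dose step Dynlt3 had a slope of -0.38 (95% interval -0.74 to -0.021, limma, unadjusted p = 0.04), and -0.43 without Ctrl 2 (unadjusted p = 0.00131). None of the 3 passed adjustment without Ctrl 2, with adjusted p of 0.486, 0.814 and 0.814 in limma.

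Of 37 gene lists, the one for T cells of the epithelium held the most members with a small p. Of its 27 genes 22 were tested, 21 of them had a positive slope, and the median slope was 0.54 against 0.0029 over all genes tested. At an unadjusted p under 0.05, 13 of the 22 had a positive slope and 0 a negative one, beside 1.94% and 1.53% of all genes, and 0 of the 22 passed adjustment. Without Ctrl 2 the numbers were 21 positive, 14 at an unadjusted p under 0.05 and a median of 0.54. Without Ctrl 3, OE 3 and OE 4, 10 members were under that p, and without KO 1, 8 were. The list and its name were chosen with earlier results of these samples known, so the count is a description.

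Gzma was at 9.71 and 28.5 scaled TPM in KO 1 and 2, at 19.6, 38.7 and 62.00 in Ctrl 1 to 3 and at 158, 43.04, 67.1, 116 and 218 in OE 1 to 5. Gzma encodes granzyme A, a protease of the killing granules of T cells. Each OE sample lay above both KO samples, Ctrl 3 lay above OE 2, and the library labelled OE 1, with Stat5 transcripts in the Ctrl range, had the second highest value. Fitted to all samples, the slope was 1.31 (95% interval 0.63 to 1.98, limma, unadjusted p = 0.00126), compared with 1.30 without Ctrl 2 (unadjusted p = 0.00201). For Gzmb, KO 1 and 2 gave 1.15 and 7.84 scaled TPM, Ctrl 1 to 3 gave 5.01, 13.7 and 19.03, and OE 1 to 5 gave 21.3, 11.6, 17.6, 28.3 and 30.97. Gzmb encodes granzyme B, which activates caspases in target cells. The fitted slope of Gzmb was 1.11 (95% interval 0.49 to 1.74, limma, unadjusted p = 0.00238) and became 1.14 without Ctrl 2 (unadjusted p = 0.00255). Scaled TPM of Ccl5 were 4.81 and 11.5 in KO 1 and 2, 15.4, 12.9 and 41.9 in Ctrl 1 to 3 and 71.8, 23.3, 30.00, 39.8 and 100.4 in OE 1 to 5. Ccl5 encodes a chemokine released by activated T cells, and Ctrl 3 lay within the OE range. The slope was 1.22 (95% interval 0.59 to 1.84, limma, unadjusted p = 0.00128) and 1.18 without Ctrl 2 (unadjusted p = 0.0019).

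Genes of the T cell receptor and its kinase had group means in the same order. Cd3e amounted to 1.13 and 3.83 scaled TPM in KO 1 and 2, to 5.54, 2.92 and 11.9 in Ctrl 1 to 3 and to 13.1, 5.71, 15.2, 13.8 and 21.98 in OE 1 to 5. Cd3e encodes a chain of the CD3 complex, through which the receptor signals. This gave a slope of 1.05 (95% interval 0.49 to 1.61, limma, unadjusted p = 0.00162), or 1.01 when Ctrl 2 was left out (unadjusted p = 0.0017). Lck stood at 5.704 and 5.68 scaled TPM in the KO samples, at 8.12, 16.6 and 16.7 in Ctrl 1 to 3 and at 36.99, 12.5, 13.7, 28.98 and 35.1 in OE 1 to 5. Lck encodes the kinase that phosphorylates CD3, and its KO values were nearly equal and lowest of all. Lck had a slope of 0.90 (95% interval 0.42 to 1.38, limma, unadjusted p = 0.00158), with 0.92 in the absence of Ctrl 2 (unadjusted p = 0.00153). The values of Thy1 were 1.28 and 1.04 scaled TPM in KO 1 and 2, then 1.78, 0 and 4.81 in Ctrl 1 to 3, and 5.52, 4.95, 5.33, 7.87 and 5.94 in OE 1 to 5. Thy1 encodes a surface glycoprotein of mouse T cells, and all OE samples lay above all Ctrl and KO samples. Its slope per step was 0.92 (95% interval 0.34 to 1.51, limma, unadjusted p = 0.00516), against 0.83 without Ctrl 2 (unadjusted p = 0.000154). The Thy1 fit without Ctrl 2 gave an adjusted p of 0.478 in limma.

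In KO 1 and 2 Cd8a measured 0.968 and 3.13 scaled TPM, in Ctrl 1 to 3 3.78, 6.48 and 6.75, and in OE 1 to 5 9.07, 2.65, 10.96, 9.57 and 13.6. Cd8a, a coreceptor chain carried by most T cells of the epithelium, had both KO samples below all Ctrl samples and OE 2 below them too. Across all 10 samples Cd8a sloped by 0.80 (95% interval 0.26 to 1.34, limma, unadjusted p = 0.00759) and, without Ctrl 2, by 0.82 (unadjusted p = 0.00712). Cd4, the coreceptor of helper T cells, stayed at or below 2.04 scaled TPM in every sample and was listed at 0 in Ctrl 1 and Ctrl 2. Its slope lay between 0.29 and 0.62 when 1 sample at a time was left out. Itgae, the CD103 integrin chain that binds E-cadherin on epithelial cells, had a slope of 0.56 (limma, unadjusted p = 0.0315). Constant genes of the gamma chain of the T cell receptor, chosen after their values were seen, had slopes of 1.26 for Tcrg-C1 and 1.34 for Tcrg-C2 (limma, unadjusted p = 0.00288 and 0.00254). Those of the alpha and beta chains had slopes of 0.95 for Trac, 0.89 for Trbc1 and 0.75 for Trbc2 (limma, unadjusted p = 0.0655, 0.0619 and 0.046). Tcrg-C2 gave 0.330 and 0.833 scaled TPM in KO 1 and 2, 2.13, 15.5 and 6.26 in Ctrl 1 to 3 and 9.48, 2.96, 14.2, 19.9 and 15.99 in OE 1 to 5. Both KO samples were below every other sample at Tcrg-C2, while OE 2 lay below Ctrl 2 and Ctrl 3. Epcam, a cell adhesion molecule of the epithelium named after its values were seen, had a slope of 0.14 (95% interval -0.18 to 0.47).

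The mean level of the 22 T cell genes, on the log2(scaled TPM + 1) scale, was 1.29 and 1.87 in KO, 1.62, 2.29 and 2.69 in Ctrl and 3.02, 1.99, 2.72, 3.10 and 3.39 in OE 1 to 5. OE 2, with Stat5b at 3.50 scaled TPM, thus had the lowest T cell level of its group, and the library labelled OE 1, with Stat5b at 1.49, one of the 3 highest. Within OE, the order of this level was not the order of Stat5b. Lists for other cells of the gut wall had slopes of both signs. For macrophages and dendritic cells the range of mean levels was 2.52 to 3.02 in KO, 1.51 to 2.01 in Ctrl and 2.01 to 3.21 in OE, and the median slope was -0.067. For fibroblasts and matrix it was 1.84 to 3.05 in KO, 1.27 to 1.81 in Ctrl and 1.46 to 3.16 in OE, with a median slope of -0.096. Without KO 1 both medians turned positive, to 0.20 and 0.13, with 13 of 15 and 8 of 12 members positive, so neither direction holds without that sample. The 3 red blood cell genes tested all had a positive slope, with a median of 0.48. Their mean level was 2.53 to 3.20 in KO, 1.91 to 2.47 in Ctrl and 4.61, 2.28, 4.46, 2.70 and 4.26 in OE 1 to 5, so OE 1, OE 3 and OE 5 lay above all others. Of 5 endothelial genes tested 4 had a positive slope (median 0.16), and their level was 0.651 to 0.751 in KO, 0.276 to 0.947 in Ctrl and 0.706 to 1.13 in OE. The part of the number of T cells, or of blood and vessel cells, in the crypt preparations in these slopes was not tested.

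**Figure D4:**
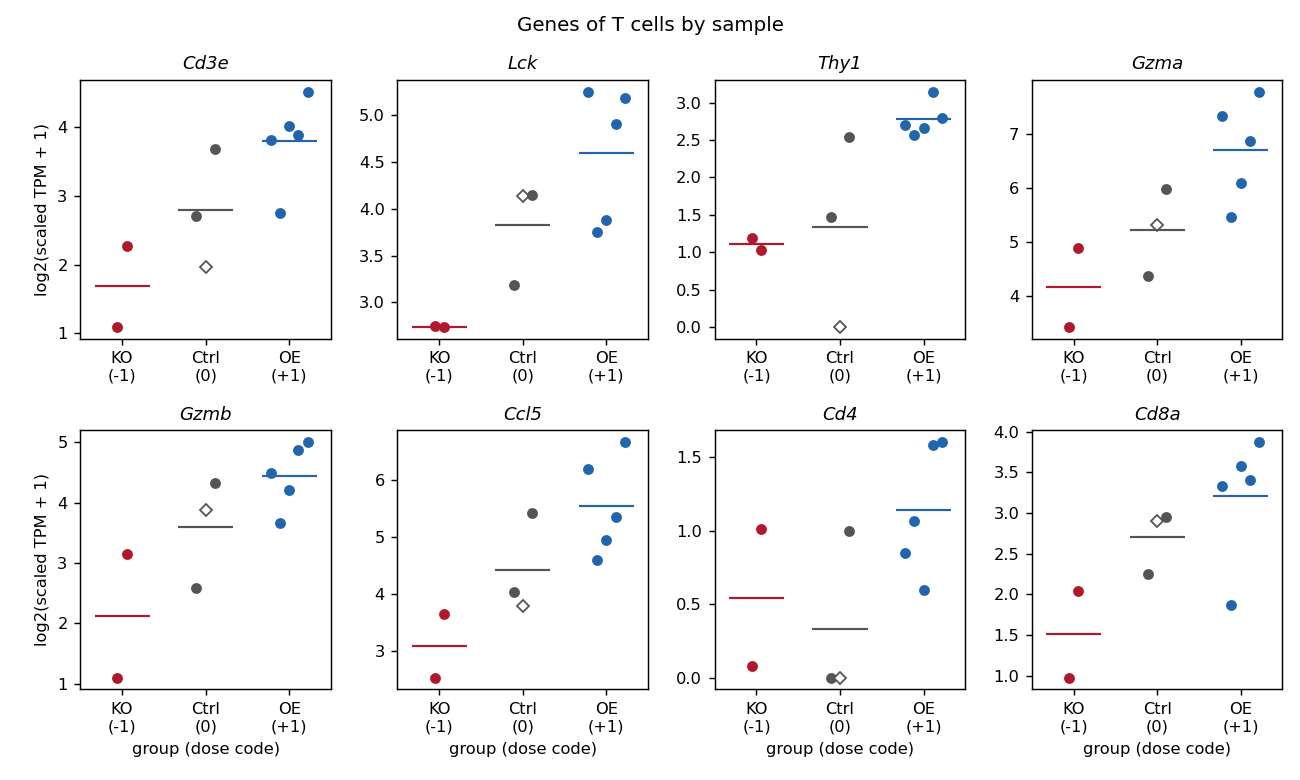
log2(scaled TPM + 1) in each sample (vertical axis, scaled for each gene) by group and dose code (horizontal axis) for 8 genes of T cells. Points are samples, the open diamond is Ctrl 2 and bars are group means. OE 2 is the lowest OE sample at Cd3e, Lck, Thy1, Gzma, Gzmb, Ccl5 and Cd8a, and Cd4 is low in every sample.

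The promoters of the T cell genes were read for the letters TTCNNNGAA, the element bound by STAT5 (its reverse complement is the same pattern), in the 250 bases before each start site of the RefSeq annotation (GRCm38.p6). Of the 13 members with a promoter in the table, 3 held it (23.1%), beside 7.33% of all tested genes with a promoter there and 7.02% of all promoters. Those 3 stretches are shown, the element in capitals, 5′ to 3′ on the strand of the gene.
Cd3d: tcccttacacTTCCTAGAAttctgaacaa
Nkg7: ccccaaggtcTTCCAGGAAaccagttgtc
Cd160: tttctcagtcTTCTTTGAAccttagtgca
The stretch of Cd3d is chr9:44981579-44981607 (plus strand), its element beginning 197 bases before the start site. The stretch of Nkg7 is chr7:43436908-43436936 (plus strand), its element beginning 220 bases before the start site. The stretch of Cd160 is chr3:96814737-96814765 (minus strand), its element beginning 234 bases before the start site. Cd3d encodes another CD3 chain, Nkg7 a protein of killing granules and Cd160 a receptor of killer cells and intraepithelial T cells. Their slopes were 0.42, 0.87 and 0.26 (limma, unadjusted p = 0.108, 0.0197 and 0.136). Gzma, Gzmb, Lck and Cd3e had no match of these letters in the windows read. Over all genes at an unadjusted p under 0.05, the share with the element was 6.21% of those of positive slope and 5.43% of those of negative slope. A match of letters is a description of the sequence and not a binding site. VilCreER is driven in the epithelium, and Stat5 within the T cells was not measured apart from it.

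Genes of B and plasma cells and of MHC class II also had mostly positive slopes, but their levels did not follow the order of the labels. The mean log2(scaled TPM + 1) of B and plasma cell genes was 1.54 to 2.55 in KO, 0.913 to 1.71 in Ctrl and 1.59 to 4.04 in OE. For MHC class II it was 4.585 to 5.02 in KO, 4.30 to 4.62 in Ctrl and 4.615 to 5.72 in OE. In both lists the higher KO sample lay above every Ctrl sample, and the lower KO sample lay within the Ctrl range. Of 17 B and plasma cell genes 15 were positive, with a median slope of 0.38 (0.42 without Ctrl 2) and 2 at an unadjusted p under 0.05. The median was 0.20 without OE 4, 0.18 without Ctrl 3, OE 3 and OE 4, and 0.90 without KO 1, where 7 were at that p. At Jchain, 9.32 and 4.21 scaled TPM were found in KO 1 and 2, 25.1, 16.1 and 4.12 in Ctrl 1 to 3 and 17.4, 15.8, 30.5, 112 and 43.4 in OE 1 to 5. Jchain encodes the chain that joins secreted IgA and IgM, and 1 sample, OE 4, was far above the rest. A slope of 1.16 resulted (95% interval 0.36 to 1.96, limma, unadjusted p = 0.00852), with 1.17 once Ctrl 2 was dropped (unadjusted p = 0.011). Igkc, the constant region of the kappa light chain and the most abundant of the list, reached 1057 scaled TPM in OE 4, with 97.3 to 469 in the other OE samples. All 10 MHC class II genes had a positive slope, with a median of 0.26 (0.43 without KO 2), and H2-Eb1 alone had an unadjusted p under 0.05 (slope 0.39, limma, unadjusted p = 0.042). MHC class II molecules present antigen to helper T cells. H2-Eb1 was at 42.99 and 65.1 scaled TPM in KO 1 and 2, at 60.8, 74.7 and 55.1 in Ctrl 1 to 3 and at 155, 71.8, 59.4, 78.8 and 106 in OE 1 to 5. The library labelled OE 1 was highest, and OE 2 and OE 3 lay within the Ctrl range.

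Within the JAK-STAT pathway, 13 of 22 genes had a positive slope (59.1%, median 0.075), beside 50.6% of all genes tested. Of the 22, 5 had an unadjusted p under 0.05, all positive: Stat5b, Stat5a, Stat4, Stat3 and Il2rg. For Stat3, KO 1 and 2 gave 66.7 and 66.7 scaled TPM, Ctrl 1 to 3 gave 80.8, 111 and 95.6, and OE 1 to 5 gave 59.2, 259.9, 209.5, 251 and 126. Stat3 encodes the STAT of the interleukin 6 and interleukin 22 receptors. OE 2 to OE 5 lay above all other samples, and the library labelled OE 1 lay below all others. Per dose step Stat3 had a slope of 0.64 (95% interval 0.12 to 1.16, limma, unadjusted p = 0.0202), and 0.65 without Ctrl 2 (unadjusted p = 0.0233). The gene lies on chromosome 11 beside Stat5a, on the opposite strand, and the annotated ends of Stat3 and Stat5a overlap by 72 bases. Of the 13 other genes tested within 200 kb of Stat5a and Stat5b, 10 had a positive slope (median 0.14), and 2, Stat3 and Cavin1, had an unadjusted p under 0.05. Scaled TPM of Cavin1 were 1.004 and 1.07 in KO 1 and 2, 1.71, 0.516 and 0.487 in Ctrl 1 to 3 and 1.58, 3.63, 3.73, 2.66 and 5.305 in OE 1 to 5. Cavin1, which encodes a coat protein of caveolae, was named after its values were seen. Fitted to all samples, the slope was 0.62 (95% interval 0.16 to 1.09, limma, unadjusted p = 0.0133), compared with 0.58 without Ctrl 2 (unadjusted p = 0.0124). Without Ctrl 3, OE 3 and OE 4 the slope of Stat3 was 0.44 (limma, unadjusted p = 0.138).

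Il2rg amounted to 6.53 and 1.25 scaled TPM in KO 1 and 2, to 3.62, 0.231 and 2.697 in Ctrl 1 to 3 and to 16.8, 3.11, 9.48, 18.2 and 15.4 in OE 1 to 5. Il2rg encodes the common gamma chain of the receptors for interleukin 2, 7 and 15, which signal through STAT5 in lymphocytes. Its KO and Ctrl values overlapped, and OE 2 lay within their range. The fitted slope of Il2rg was 0.96 (95% interval 0.078 to 1.85, limma, unadjusted p = 0.0356) and became 0.85 without Ctrl 2 (unadjusted p = 0.0224). With Ctrl 3, OE 3 and OE 4 left out it was 0.77 (limma, unadjusted p = 0.168). Stat4, the STAT of the interleukin 12 receptor, had a slope of 0.46 (limma, unadjusted p = 0.0113), and its 5 OE samples, between 0.766 and 2.22 scaled TPM, lay above all others, which were between 0.289 and 0.587. Prlr stood at 33.8 and 30.6 scaled TPM in the KO samples, at 33.5, 59.2 and 33.6 in Ctrl 1 to 3 and at 41.04, 26.2, 21.1, 13.9 and 17.6 in OE 1 to 5. Prlr, the prolactin receptor, a hormone receptor that signals through STAT5, had a slope of -0.34 (limma, unadjusted p = 0.127).

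Classical targets and feedback genes of STAT5 had slopes in both directions. Of 24 tested, 15 had a positive slope (62.5%, beside 50.6% of all genes tested). The median was 0.11 (0.075 without Ctrl 2, 0.18 without KO 1). At an unadjusted p under 0.05 there were 2 positive, Pim3 and Gadd45g, and 1 negative, Socs2. The values of Socs2 were 104 and 144 scaled TPM in KO 1 and 2, then 145, 46.00 and 81.5 in Ctrl 1 to 3, and 49.9, 71.99, 66.3, 61.4 and 77.96 in OE 1 to 5. Socs2 encodes an inhibitor of growth hormone signalling that STAT5 itself induces in liver. Its slope was negative, against the labelled dose: the KO samples and Ctrl 1 were the 3 highest, and Ctrl 2 was lowest. The slope was -0.44 (95% interval -0.83 to -0.041, limma, unadjusted p = 0.0334) and -0.49 without Ctrl 2 (unadjusted p = 0.00544). In KO 1 and 2 Pim3 measured 4.88 and 3.09 scaled TPM, in Ctrl 1 to 3 5.25, 5.86 and 8.67, and in OE 1 to 5 9.26, 6.98, 6.45, 7.02 and 8.31. Pim3 encodes a survival kinase, and both KO samples were lowest. This gave a slope of 0.37 (95% interval 0.08 to 0.66, limma, unadjusted p = 0.0168), or 0.37 when Ctrl 2 was left out (unadjusted p = 0.0152). Gadd45g gave 3.38 and 2.34 scaled TPM in KO 1 and 2, 2.93, 2.19 and 5.86 in Ctrl 1 to 3 and 21.9, 6.63, 3.05, 7.44 and 14.4 in OE 1 to 5. Gadd45g encodes a stress sensor that STAT5 and STAT3 cytokines induce. Gadd45g had a slope of 0.75 (95% interval 0.13 to 1.37, limma, unadjusted p = 0.0223), with 0.71 in the absence of Ctrl 2 (unadjusted p = 0.0261). At Cish, 5.29 and 1.19 scaled TPM were found in KO 1 and 2, 2.402, 2.77 and 7.596 in Ctrl 1 to 3 and 1.88, 3.46, 3.52, 4.77 and 7.05 in OE 1 to 5. Cish encodes the cytokine-inducible SH2 protein, the best known feedback inhibitor of STAT5 signalling. Its groups overlapped throughout. Its slope per step was 0.17 (95% interval -0.37 to 0.71, limma, unadjusted p = 0.51), against 0.16 without Ctrl 2 (unadjusted p = 0.55). Without KO 2 that slope was -0.12.

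The same reading of promoters found the STAT element before Socs3 and Bcl6, 2 of the 15 target genes with a promoter in the table (13.3%), and before Prlr. Socs3 encodes a feedback inhibitor of STAT3 signalling, and Bcl6 a repressor whose gene STAT5 can silence. The element was also present before Lig1, Arhgap45, Esr1 and Cpt2, which are named elsewhere in this report for a small unadjusted p. The stretches of Socs3, Bcl6 and Prlr are shown because the letters are present while the genes had no ordered level.
Socs3: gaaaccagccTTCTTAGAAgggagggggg
Bcl6, upstream start: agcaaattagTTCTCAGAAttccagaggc
Bcl6, downstream start: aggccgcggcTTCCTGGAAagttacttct
Prlr: gcaaaatgagTTCTAGGAAtaagggatat
The stretch of Socs3 is chr11:117969502-117969530 (minus strand), its element beginning 154 bases before the start site. The stretch at the upstream start of Bcl6 is chr16:23988952-23988980 (minus strand), its element beginning 118 bases before the start site. Its downstream start had 3 matches, of which the one farthest from the start is shown. That stretch is chr16:23981433-23981461 (minus strand), its element beginning 168 bases before the start site. The stretch of Prlr is chr15:10223786-10223814 (plus strand), its element beginning 110 bases before the start site. The capitals mark the element. Socs3 had a slope of -0.25 (95% interval -0.94 to 0.43) and Bcl6 a slope of 0.12 (95% interval -0.23 to 0.47). Bcl6 was at 1.98 and 1.45 scaled TPM in KO 1 and 2, at 1.23, 3.48 and 1.498 in Ctrl 1 to 3 and at 1.296, 2.195, 2.198, 2.97 and 2.54 in OE 1 to 5. Bcl6 was thus low in every sample, and its 3 groups overlapped.

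Most Paneth cell genes had a positive slope, with a wide spread between samples. All 16 alpha-defensins tested had a positive slope, with a median of 0.65 (1.02 without KO 2 and 0.42 without OE 5), and 0 had an unadjusted p under 0.05. Without Ctrl 2, 14 were positive, the median was 0.46, and 4 had an unadjusted p under 0.05: Defa26, Defa31, Defa3 and Defa17. Alpha-defensins are the bactericidal peptides of Paneth granules, and as near-identical copies their single values are uncertain. On the log2(scaled TPM + 1) scale the mean level of the 16 was 6.38 and 7.73 in KO 1 and 2. It was 7.695, 2.71 and 6.60 in Ctrl 1 to 3 and 7.39, 7.27, 8.135, 7.185 and 8.77 in OE 1 to 5. KO 2 thus lay above every Ctrl sample and above OE 1, OE 2 and OE 4. For Defa3, KO 1 and 2 gave 59.98 and 88.1 scaled TPM, Ctrl 1 to 3 gave 222, 0 and 302, and OE 1 to 5 gave 156, 239, 413, 427 and 642. Both KO samples lay below every other sample but Ctrl 2, which was listed at 0 here and was the lowest sample for the other 3 as well. Across all 10 samples Defa3 sloped by 1.38 (95% interval -0.56 to 3.32, limma, unadjusted p = 0.146) and, without Ctrl 2, by 1.01 (unadjusted p = 0.00237). Scaled TPM of Defa31 were 536 and 1062 in KO 1 and 2, 1308, 86.95 and 1401 in Ctrl 1 to 3 and 1678, 1264, 3378, 1218 and 5196 in OE 1 to 5. OE 5 was highest, and OE 2 and OE 4 lay below Ctrl 1 and Ctrl 3. A slope of 0.93 resulted (95% interval -0.20 to 2.07, limma, unadjusted p = 0.0971), with 0.74 once Ctrl 2 was dropped (unadjusted p = 0.0213). Of 25 other Paneth cell products, 19 had a positive slope (median 0.28, 0.19 without Ctrl 2). Only Copz2, a coat protein of transport vesicles, had an unadjusted p under 0.05 (slope 0.55, limma, unadjusted p = 0.0421). The Copz2 slope without Ctrl 3, OE 3 and OE 4 was 0.50 (limma, unadjusted p = 0.122). Pla2g2a amounted to 15.5 and 9.75 scaled TPM in KO 1 and 2, to 15.99, 0 and 16.6 in Ctrl 1 to 3 and to 14.3, 9.93, 428, 317 and 24.00 in OE 1 to 5. Pla2g2a, a secreted phospholipase that kills bacteria, was far higher in OE 3 and OE 4, 2 of the 3 samples with few Y-linked transcripts, than elsewhere. Its slope of 1.34 was 0.24 without Ctrl 3, OE 3 and OE 4. In TPM as deposited, Lyz1 of the same list was at 709 and 2719 in KO 1 and 2. Ctrl 1 to 3 gave 2673, 24.8 and 752, and OE lay between 505 and 4320, so KO and OE overlapped. Goblet cell genes (14 of 18 positive, median 0.21) and tuft cell genes (17 of 20, median 0.31) also had mostly positive slopes. Without KO 2 the tuft median was -0.00098. Ctrl 3 had the highest mean level of all samples in both lists, at 6.72 for goblet and 4.005 for tuft cell genes. Of 17 enteroendocrine cell genes only 3 had a positive slope, with a median of -0.087 (0.027 without OE 4).

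Of the genes in the study's title, none had a slope with an unadjusted p under 0.05. Wnt3a was listed at 0 in all 10 samples. Tcf7l2 stood at 9.697 and 16.9 scaled TPM in the KO samples, at 15.3, 17.4 and 14.2 in Ctrl 1 to 3 and at 18.01, 15.4, 11.8, 10.99 and 16.8 in OE 1 to 5. Tcf7l2 encodes TCF4, the main partner of beta-catenin in crypts, and its groups overlapped. Per dose step Tcf7l2 had a slope of 0.047 (95% interval -0.25 to 0.34, limma, unadjusted p = 0.733), and 0.062 without Ctrl 2 (unadjusted p = 0.639). The values of Sox9 were 13.2 and 15.9 scaled TPM in KO 1 and 2, then 13.2, 3.11 and 18.9 in Ctrl 1 to 3, and 7.86, 14.5, 16.4, 12.2 and 15.1 in OE 1 to 5. Sox9, which Paneth cells need to form, was lowest in Ctrl 2 and otherwise similar across groups. Fitted to all samples, the slope was -0.012 (95% interval -0.57 to 0.55, limma, unadjusted p = 0.965), compared with -0.10 without Ctrl 2 (unadjusted p = 0.47). In KO 1 and 2 Gfi1 measured 1.92 and 2.25 scaled TPM, in Ctrl 1 to 3 2.600, 0 and 2.53, and in OE 1 to 5 1.66, 0.391, 2.64, 4.12 and 3.25. Gfi1, a repressor that keeps secretory cells from an endocrine fate, was listed at 0 in Ctrl 2. The fitted slope of Gfi1 was 0.068 (95% interval -0.56 to 0.69, limma, unadjusted p = 0.816) and became -0.015 without Ctrl 2 (unadjusted p = 0.944). The direction of each of these 3 slopes turned under at least 1 alternative. Of 16 Wnt pathway genes, 8 were positive (50%, median 0.002), beside 50.6% of all genes tested. Tcf7 had a slope of 0.50 and Lrp6 of -0.35, both at an unadjusted p under 0.05. Lrp6 gave 17.4 and 17.4 scaled TPM in KO 1 and 2, 17.9, 13.2 and 17.4 in Ctrl 1 to 3 and 7.12, 11.9, 12.4, 14.3 and 9.59 in OE 1 to 5. Lrp6, a coreceptor of Wnt ligands, was nearly equal in KO and in Ctrl 1 and Ctrl 3, and 4 of the 5 OE samples lay below every KO and Ctrl sample. The slope was -0.35 (95% interval -0.65 to -0.058, limma, unadjusted p = 0.0232) and -0.36 without Ctrl 2 (unadjusted p = 0.0207). Tcf7, a TCF factor that T cells also express, was between 4.62 and 12.4 scaled TPM in OE and between 2.17 and 5.01 in the others. The Tcf7 slope without Ctrl 3, OE 3 and OE 4 was 0.38 (limma, unadjusted p = 0.126).

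Most replication genes had a positive slope. Of 38 tested, 35 had a positive slope, with a median of 0.21 (0.33 without KO 2), and 4 had an unadjusted p under 0.05: Pcna, Lig1, Gins2 and Pold1. The Pold1 slope without Ctrl 3, OE 3 and OE 4 was 0.38 (limma, unadjusted p = 0.193). In TPM as deposited 37 of the list were positive and 1 had an unadjusted p under 0.05, so the count at that p depends on the scaling. Without Ctrl 2, 33 were positive, the median was 0.13, and 7 positive and 1 negative had an unadjusted p under 0.05. At Pcna, 15.3 and 9.52 scaled TPM were found in KO 1 and 2, 12.8, 11.8 and 28.1 in Ctrl 1 to 3 and 37.4, 33.5, 27.4, 29.7 and 35.3 in OE 1 to 5. Pcna encodes the sliding clamp of DNA polymerases. The 5 OE samples and Ctrl 3 formed the upper group, and the other Ctrl samples lay with KO. This gave a slope of 0.72 (95% interval 0.36 to 1.08, limma, unadjusted p = 0.00102), or 0.68 when Ctrl 2 was left out (unadjusted p = 0.000696). Lig1 was at 11.1 and 14.04 scaled TPM in KO 1 and 2, at 19.9, 8.59 and 27.7 in Ctrl 1 to 3 and at 20.1, 27.6, 30.9, 25.2 and 32.6 in OE 1 to 5. Lig1 encodes the ligase that joins Okazaki fragments, and its KO samples lay below every sample but Ctrl 2. Lig1 had a slope of 0.54 (95% interval 0.15 to 0.93, limma, unadjusted p = 0.0111), with 0.49 in the absence of Ctrl 2 (unadjusted p = 0.00285). For Gins2, KO 1 and 2 gave 6.95 and 8.11 scaled TPM, Ctrl 1 to 3 gave 15.5, 4.62 and 16.2, and OE 1 to 5 gave 16.9, 17.9, 16.9, 11.6 and 18.6. Gins2 encodes a subunit of the replicative helicase complex. Its slope per step was 0.51 (95% interval 0.10 to 0.93, limma, unadjusted p = 0.0205), against 0.45 without Ctrl 2 (unadjusted p = 0.00492). Of 32 mitosis genes 31 were positive (median 0.17), but only Pmf1, a kinetochore protein, had an unadjusted p under 0.05, and without Ctrl 2 26 were positive with a median of 0.098 and 5 were at that p. Scaled TPM of Pmf1 were 2.53 and 3.24 in KO 1 and 2, 3.17, 1.88 and 1.599 in Ctrl 1 to 3 and 4.11, 5.499, 6.34, 7.25 and 6.55 in OE 1 to 5. All 5 OE samples of Pmf1 lay above the rest, and every Ctrl sample lay below KO 2.

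Most fatty acid oxidation genes had a negative slope. Of 32 tested, 6 had a positive slope, the median was -0.097 (-0.089 without Ctrl 2, -0.22 without KO 2), and 3 had an unadjusted p under 0.05, all negative. In TPM as deposited 13 were positive, the median was -0.05 and 0 were negative at an unadjusted p under 0.05, so the count depends on the scaling. Acaa2 amounted to 73.4 and 108 scaled TPM in KO 1 and 2, to 68.2, 96.4 and 49.8 in Ctrl 1 to 3 and to 26.2, 32.9, 79.5, 35.7 and 36.5 in OE 1 to 5. Acaa2 encodes a thiolase of the mitochondrial spiral, and OE 3 alone of the OE samples lay within the KO and Ctrl range. Across all 10 samples Acaa2 sloped by -0.62 (95% interval -1.04 to -0.19, limma, unadjusted p = 0.00842) and, without Ctrl 2, by -0.58 (unadjusted p = 0.00861). Acadvl stood at 72.8 and 98.3 scaled TPM in the KO samples, at 53.99, 99.8 and 64.7 in Ctrl 1 to 3 and at 52.4, 39.3, 74.7, 42.3 and 56.8 in OE 1 to 5. Acadvl encodes the dehydrogenase of very long chains. A slope of -0.36 resulted (95% interval -0.69 to -0.036, limma, unadjusted p = 0.0327), with -0.33 once Ctrl 2 was dropped (unadjusted p = 0.0286). The values of Cpt1a were 41.7 and 33.8 scaled TPM in KO 1 and 2, then 30.4, 24.9 and 41.3 in Ctrl 1 to 3, and 17.1, 27.03, 32.7, 24.5 and 21.7 in OE 1 to 5. Cpt1a encodes the carnitine transferase that admits fatty acids to mitochondria. Per dose step Cpt1a had a slope of -0.32 (95% interval -0.62 to -0.025, limma, unadjusted p = 0.036), and -0.34 without Ctrl 2 (unadjusted p = 0.0255). Acaa2 kept a slope of -0.77 without Ctrl 3, OE 3 and OE 4 (limma, unadjusted p = 0.00325).

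Stress-related lists gave smaller numbers. Of 18 immediate early genes 15 had a positive slope (median 0.18), with Maff, Atf3 and Nr4a2 at an unadjusted p under 0.05. In KO 1 and 2 Maff measured 1.62 and 1.75 scaled TPM, in Ctrl 1 to 3 2.55, 2.44 and 3.63, and in OE 1 to 5 5.99, 3.43, 4.604, 2.55 and 7.94. Maff encodes a small Maf factor induced by stress, and both KO samples were lowest. Fitted to all samples, the slope was 0.53 (95% interval 0.17 to 0.90, limma, unadjusted p = 0.0085), compared with 0.52 without Ctrl 2 (unadjusted p = 0.00945). Nr4a2 gave 0.267 and 0.595 scaled TPM in KO 1 and 2, 1.08, 1.48 and 3.83 in Ctrl 1 to 3 and 2.79, 4.04, 2.24, 1.02 and 2.04 in OE 1 to 5. Nr4a2 encodes an orphan nuclear receptor, again with KO lowest, and Ctrl and OE overlapped. The fitted slope of Nr4a2 was 0.54 (95% interval 0.083 to 0.99, limma, unadjusted p = 0.0246) and became 0.54 without Ctrl 2 (unadjusted p = 0.0276). Such genes can be induced by tissue handling, and handling times are not given in the labels. Of 31 genes of ER chaperones and the unfolded protein response, 21 were positive (median 0.11), with Calr at 0.40 and Dnajb11 at 0.38, both chaperones, and the sensor Atf6 at -0.27 at an unadjusted p under 0.05. Without KO 1, 15 of the 31 were positive and the median was -0.015, with 0 positive and 2 negative at that p. At Calr, 228 and 218 scaled TPM were found in KO 1 and 2, 259.9, 293 and 570.2 in Ctrl 1 to 3 and 484, 334, 340.2, 429.6 and 461 in OE 1 to 5. Both KO samples were again the lowest.

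**Figure D5:**
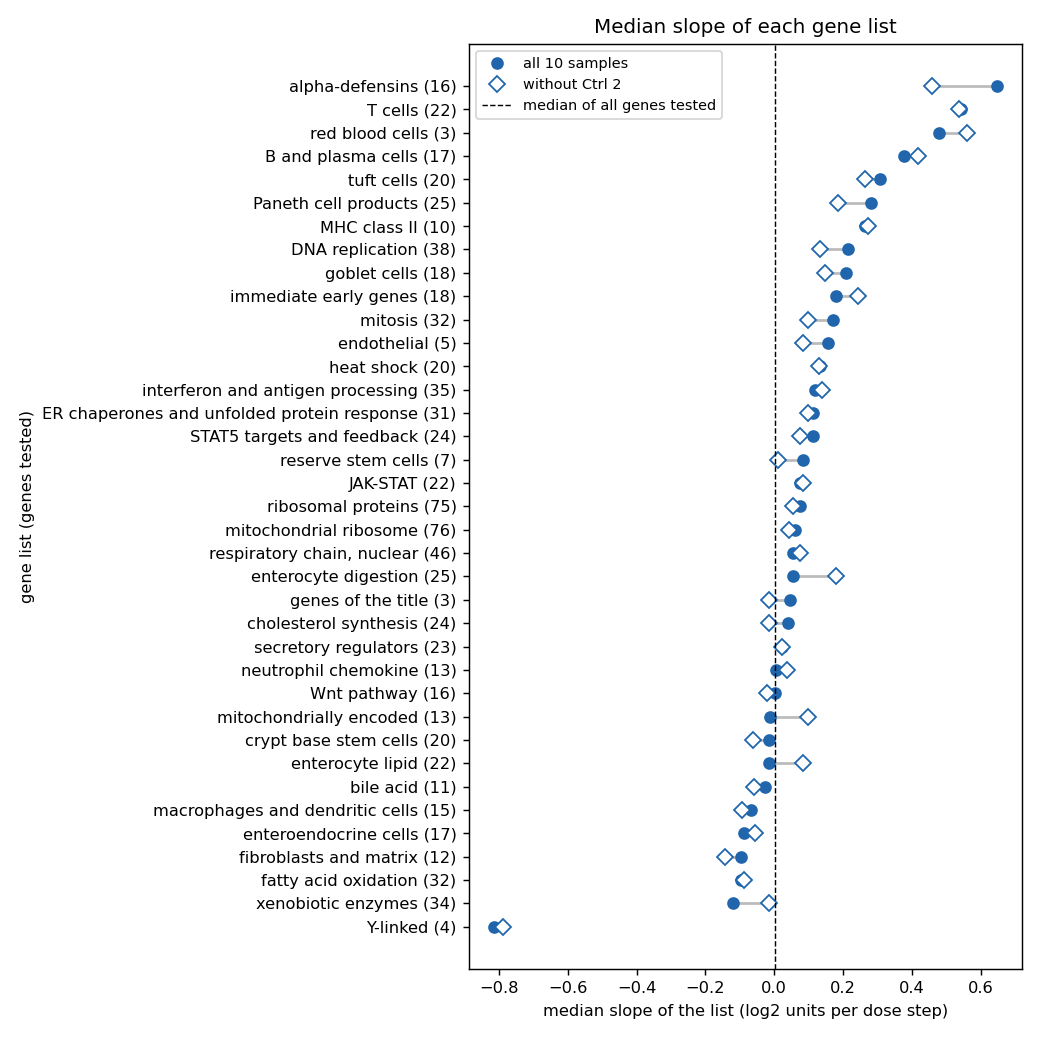
Median slope (horizontal axis, log2 units per dose step) of each gene list (vertical axis, number of genes tested in brackets), over all 10 samples (filled points) and without Ctrl 2 (open diamonds). The dashed line is the median of all genes tested, at 0.0029. Alpha-defensins (0.65 and 0.46) and T cells (0.54 and 0.54) lie farthest to the right over all 10 samples, and Y-linked genes, which were low in 3 samples, at -0.81.

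A straight line over the 3 codes assumes that Ctrl lies between the ends. A second term tested whether Ctrl lay off the line between KO and OE. It called 0% of 13056 genes (limma, adjusted p under 0.05), with a smallest adjusted p of 0.715 and 642 genes at an unadjusted p under 0.05. Without Ctrl 2 the smallest adjusted p was 0.9999 and 302 genes had an unadjusted p under 0.05 (limma). Cpt2 was at 9.403 and 6.27 scaled TPM in KO 1 and 2, at 19.97, 40.1 and 33.1 in Ctrl 1 to 3 and at 10.1, 13.9, 20.2, 17.1 and 9.75 in OE 1 to 5. Cpt2 encodes the carnitine transferase of the inner mitochondrial membrane, and Ctrl was above the line. Ctrl 1 and OE 3 were nearly equal, and Ctrl 2 and Ctrl 3 were highest (limma, unadjusted p = 0.000718). For Coq8a, KO 1 and 2 gave 16.2 and 20.7 scaled TPM, Ctrl 1 to 3 gave 67.1, 25.8 and 87.8, and OE 1 to 5 gave 14.7, 9.396, 24.1, 8.57 and 16.5. Coq8a encodes a protein needed to make coenzyme Q, and Ctrl 1 and Ctrl 3 stood far above all others (limma, unadjusted p = 0.0021). Scaled TPM of Inpp1 were 0.226 and 1.52 in KO 1 and 2, 3.33, 9.53 and 5.897 in Ctrl 1 to 3 and 2.88, 1.002, 1.43, 3.17 and 2.38 in OE 1 to 5. Inpp1 encodes an inositol phosphate phosphatase, again with Ctrl highest (limma, unadjusted p = 0.00204). Lyz2 amounted to 171 and 104 scaled TPM in KO 1 and 2, to 10.3, 10.7 and 2.39 in Ctrl 1 to 3 and to 193, 24.3, 77.7, 45.1 and 11.6 in OE 1 to 5. Lyz2, the lysozyme of macrophages and a close copy of Lyz1, lay on the other side, with all 3 Ctrl samples below all KO and OE samples (limma, unadjusted p = 0.00123). Rps27l stood at 12.1 and 20.9 scaled TPM in the KO samples, at 7.88, 5.101 and 4.47 in Ctrl 1 to 3 and at 8.31, 11.7, 13.3, 13.7 and 11.3 in OE 1 to 5. Rps27l, a p53 target related to a ribosomal protein, and Stx5a, a SNARE protein of the Golgi, were the other 2 named genes with Ctrl below the line (limma, unadjusted p = 0.0014 and 0.00134). Without Ctrl 2 the departures of Cpt2, Coq8a, Inpp1, Lyz2, Rps27l and Stx5a kept their direction, with unadjusted p of 0.0042, 0.000153, 0.0117, 0.00247, 0.00537 and 0.00646 (limma). Slopes of such genes describe them poorly: that of Lyz2 was -0.26 (95% interval -1.81 to 1.29).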

How the data were processed

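RNA of 10 ileal crypt samples was analysed from TPM per gene deposited by the authors, a unit named in the file headers of 9 samples. The header of Ctrl 1 names none, and its values were read as TPM. The submitters' processing notes name TopHat, Cufflinks and mm10 but no version. For annotation and strand setting, nothing was given in the sources used here. Symbols and coordinates came by ID from GENCODE M21 (GRCm38, the assembly also called mm10) for 27458 of 28987 IDs, and promoter sequences from RefSeq (GRCm38.p6).

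The deposited TPM were divided by median-ratio factors over the 11146 genes above 0 in every sample. log2 values were computed here from the deposited TPM after a pseudocount of 1, which makes fold changes of low genes look smaller. One slope per gene was fitted in limma 3.58.1 (R 4.3.3) with an intensity trend, and p-values were adjusted by Benjamini-Hochberg over 13056 genes. A polynomial term tested departures from a line. Genes ordered without overlap were counted without a test. The fit was tested on simulated data.

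Named genes were Stat5a, Stat5b, the title's genes and protein-coding genes at 5 scaled TPM or more in the highest group: up to 10 per direction by smallest p, 6 without Ctrl 2, 6 ordered without overlap and 3 departures. In each list described, the 4 members with the smallest p and the most abundant one could be named. Departures from the rule are stated where they occur. One gene that the rule names is not reported here. The groups, lists, members and tests were chosen with earlier results of these data known. Replicate numbers in the titles are shared across groups. Deviations of same-numbered samples from their group means had correlations of -0.177 to 0.0634 over 7 pairs. Within groups of 2 or 3 samples such deviations are tied to each other, so these correlations cannot exclude pairing. The main fits did not treat the samples as pairs, and a fit with the number as a block is given below. Alternatives were other scalings, pseudocounts, filters, fits, dose codes and left-out samples.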

Additional observations from a re-analysis of the deposited data

Results flagged for a closer look

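Within the 5 OE samples, 7 of 88 genes looked at had 1 value whose gap to the nearest other exceeded 0.71 of the group's range. For normally distributed values about 1 in 20 groups would have such a gap. The values here were unlogged scaled TPM of genes chosen from the same data, so the count is not a test. Jchain was at 112 scaled TPM in OE 4, above the others at 15.8 to 43.4. Gins2 was at 11.6 in OE 4, below the others at 16.9 to 18.6. Acaa2 was at 79.5 in OE 3, above the others at 26.2 to 36.5, and Tfdp2 at 3.52 in OE 3, above 1.89 to 2.25. Defa26 was at 394 in OE 5, above 104.7 to 139.9, and Defa17 at 4446 in OE 5, above 989.7 to 1962. Igflr1 was at 8.18 in the library labelled OE 1, above 2.89 to 4.22 in the others.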

How the results depend on the processing

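The count of called genes was 0 in the trend over all 10 samples under every setting run but 1: without Ctrl 2 and OE 1 together it was 1, the pseudogene Gm11794. In the trend without Ctrl 2, leaving out a further sample gave between 0 and 1 called genes, the 1 being reached without OE 1. Numbers of genes ordered without overlap moved most. From low to high it was 0 in TPM as deposited, 60 without Ctrl 3, OE 3 and OE 4, and 25 without Ctrl 2 and OE 1, and leaving out 1 sample at a time gave 5 to 19, where all 10 gave 3. From high to low it was 0 in TPM as deposited, 5 after quantile normalization, 0 with nuclear genes rescaled, 61 without Ctrl 3, OE 3 and OE 4, and 29 without Ctrl 2 and OE 1, with 4 to 24 on leaving out 1 sample. Fewer samples make the order easier to meet by construction. The cause of the differences between scalings was not tested. Where 1 KO sample was left out, the other was assumed to vary like the remaining groups.

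Pairing by replicate number was not excluded. With that number as a block, the departure from a line called 1 gene. The slope of Stat5a was then 0.54 (exact permutation p = 0.0833 within numbers) and that of Stat5b 0.70 (exact permutation p = 0.0556). In the same block fit 5 of the 22 T cell genes kept an unadjusted p under 0.05, and Gfi1 and Cish turned to -0.30 and -0.12. Over leaving out 1 sample at a time, the slope of Stat5a ranged from 0.50 to 0.66 and of Stat5b from 0.71 to 0.90. Of 86 named gene values, 82 kept their direction in all settings, and 2022 of 2037 recomputed values kept it. Sox9 turned to 0.026 in TPM as deposited and 0.023 with OE coded 2, and ranged from -0.10 to 0.11 over samples left out. Gfi1 turned to -0.072 with sample weights and -0.12 without Ctrl 3, OE 3 and OE 4, and ranged from -0.044 to 0.22. Tcf7l2 ranged from -0.11 to 0.14, and Cish from -0.12 to 0.40. The number of samples and the unknown depth limit what slopes near the median standard error of 0.19 can show.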
